A study of Mus musculus with 23 samples.

Results

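The 8 genes Orm1, Orm2, Hp, Hpx, Itih3, Itih4, Cp and Lrg1 encode plasma glycoproteins that hepatocytes secrete, and whose mRNA is known to rise in liver during an acute phase response. They were taken by gene symbol. Each had exactly 1 feature, so 8 of the 18688 array features with a listed gene were followed in 23 livers. The livers came from female C57BL/6 mice, labelled as 12 to 13 weeks old, that had inhaled carbon black (CB, Printex 90, n = 8), diesel exhaust particles (DEP, a NIST standard material, n = 7) or filtered air (n = 8). Both particles were given at 20 mg/m3 for 90 min on 4 days, and the labels place the liver samples 90 minutes after exposure, whereas the published methods give a shorter interval and a slightly younger age. The labels name no transgene and no other treatment, the methods state anaesthesia with Hypnorm and Dormicum before the livers were taken, and the arrays measured whole liver.

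On each array, liver RNA carried Cy5 and a purchased pool of mouse RNA, the same for all arrays, carried Cy3. The dyes were never exchanged. Values below are therefore log2 ratios of liver to reference, where a value of 1 is a doubling, unless a signal is named. They rank livers for 1 gene and say nothing about the level of 1 gene against another. A spot whose Cy5 signal stood at the ceiling of the scanner is called saturated. Median Cy5 signals per array ran from 268 to 549 after CB, 312 to 511 after DEP and 262 to 541.5 after air. The deposited flags marked 20.5% to 40.0% of features as absent in Cy5 after CB, 19.2% to 37.4% after DEP and 13.8% to 41.9% after air. The hepatocyte markers (7 genes) were flagged absent on most arrays in 0 cases, and their mean log2 ratio was 4.22 to 5.25 after CB, 4.51 to 5.23 after DEP and 4.80 to 5.39 after air. Of these markers, Alb was saturated on 23 arrays, Apoa1 on 20, Cyp2e1 on 19, Cps1 and Tat on 8 each and Arg1 on 3. Their mean therefore moves in part with the reference signal. The mice were exposed in 3 rounds, which held 1 CB, 1 DEP and 2 air mice, then 6, 2 and 4, then 1, 4 and 2. Precision is limited by the number of arrays, and in whole liver fewer hepatocytes and less RNA per hepatocyte cannot be told apart.

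In the acute phase response, interleukin-6 acting through STAT3, and interleukin-1 acting through NF-kappaB and C/EBP factors, raise the transcription of a set of secreted proteins in hepatocytes. Orm1 and Orm2 encode orosomucoids (alpha-1-acid glycoproteins), which bind drugs and lipophilic molecules and temper immune cells. Haptoglobin (Hp) captures free haemoglobin and hemopexin (Hpx) captures free haem, which the liver and its macrophages then clear. Itih3 and Itih4 are heavy chains of the inter-alpha-trypsin inhibitor family, Cp (ceruloplasmin) is a ferroxidase that carries copper, and Lrg1 is a leucine-rich glycoprotein that modifies TGF-beta signalling in vessels.

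None of the 6 members with a measurable ratio passed the test after either particle. At an adjusted p under 0.05, limma called 0 of 18688 features (0%) in each of the comparisons of CB with air, DEP with air and CB with DEP. At an unadjusted p under 0.05 it listed 1110 features for CB against air (5.94%), 900 for DEP against air (4.82%) and 643 for CB against DEP (3.44%). Of the 6 members, Orm1 alone was below that level for CB against air, Cp alone for CB against DEP, and 0 were for DEP against air. Log2 fold changes were below 0 in 5 of the 6 after CB, beside 49.8% of all features, and in 4 of the 6 after DEP, beside 50.0%. The comparisons with air share the same 8 air mice.

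**Figure D1:**
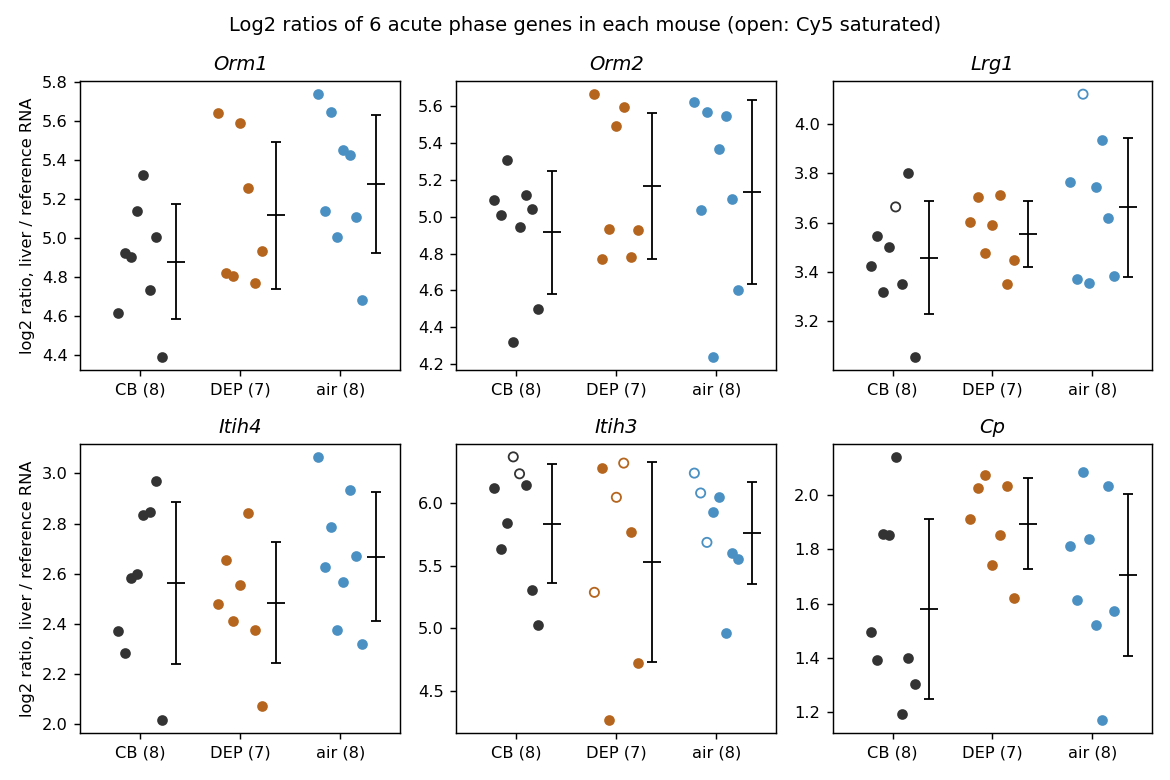
Log2 ratios of 6 genes (liver over reference RNA) in each mouse that inhaled CB, DEP or air. Each point is 1 mouse, open points are mice whose Cy5 spot was saturated, and the bar beside each group is its mean ± SD. For every gene the 3 groups overlap, and the mean of Orm1 is lower in CB mice (4.88) than in DEP (5.11) or air mice (5.27).

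The orosomucoids are described first. Orm1 (NM_008768, chr4:63344556-63348163 in GRCm38.p6) had log2 ratios of 4.39 to 5.32 in CB mice (median 4.91), 4.77 to 5.64 in DEP mice (median 4.93) and 4.68 to 5.74 in air mice (median 5.28). Its means were 4.88 ± 0.30 (SD, n = 8) after CB, 5.11 ± 0.38 (SD, n = 7) after DEP and 5.27 ± 0.35 (SD, n = 8) after air. The groups overlapped, although the median CB mouse lay below all but 1 of the air mice. The log2 fold change of Orm1 was −0.40 after CB, with a standard error of 0.16, a 95% confidence interval of −0.73 to −0.06 and an adjusted p of 0.827 by limma, which ranked it 485th of all features. The value after CB was −0.40 in a fit blocked by exposure round, within the second round −0.45, within the third round (1 CB mouse) −0.51 and with the slide set, a run of neighbouring array numbers, as a block −0.47. After DEP the log2 fold change of Orm1 was −0.16 (95% confidence interval −0.50 to 0.19, adjusted p = 0.997). Over the 23 mice, with group means removed, the log2 ratio of Orm1 went with the number of saturated features on the array (Pearson's r = 0.69, Spearman's rho = 0.63, r = 0.64 without the 2 most extreme arrays). That number had a median of 103 on CB arrays, 127 on DEP arrays and 177.5 on air arrays, and its part in the Orm1 values was not tested.

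The call for Orm1 depended on how the arrays were scaled. When each array was only centred on its median, the log2 fold change after CB was −0.72 (adjusted p = 0.0404). That scaling shifted the median of all features after CB by −0.11 and called 285 features, 270 of them lower in CB mice. Relative to that shift Orm1 was at −0.62, but the median of all features does not describe the shift of the members. From loess to median centring, Orm2 went from −0.22 to −0.53, Itih4 from −0.11 to −0.43 and Cp from −0.13 to −0.42. Lrg1 went from −0.20 to −0.50 and Itih3 from 0.07 to −0.22. Under this scaling 67.2% of all features had a value below 0 after CB, against 49.8% under loess.

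Orm2 (NM_011016, chr4:63362449-63365877) lies beside Orm1 and encodes a close paralogue, so that the 2 probes may share signal, which was not tested. Its log2 ratios were 4.32 to 5.31 in CB mice (median 5.03), 4.77 to 5.67 in DEP mice (median 4.93) and 4.24 to 5.62 in air mice (median 5.23). The lowest value of all belonged to air mouse 54, whose Cy5 signal was 3338 and Cy3 signal 142, the lowest of both channels for this gene. For Orm2 the log2 fold change was −0.22 after CB (95% confidence interval −0.62 to 0.18, adjusted p = 0.914) and 0.03 after DEP (−0.38 to 0.45, adjusted p = 0.997). Without air mouse 54 these values were −0.35 and −0.10. Relative to the array, both channels of the Orm2 spot had values above 0 after DEP. Cy5 was at 0.54 (95% confidence interval −0.23 to 1.31) and the reference signal in Cy3 at 0.53 (0.06 to 0.99, before adjustment for the number of features). In Cy5 alone, CB over DEP gave −0.92 (−1.69 to −0.15, adjusted p = 0.999 by limma). What moved the reference signal of this spot was not tested. The same 3 DEP mice (51, 57 and 444) were the highest of their group for both genes, at 5.25 to 5.64 for Orm1 and 5.49 to 5.67 for Orm2, while the other 4 lay at 4.77 to 4.93 for both.

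Haptoglobin and hemopexin scavenge haemoglobin and haem, and for both the liver signal reached the top of the scanner. Hp (NM_017370, chr8:109575128-109579172) was saturated in Cy5 on all 23 arrays and flagged absent on 0. The liver level of Hp therefore has only a bound in each group, and no fold change is given. The reference channel of the Hp spot, which holds the same purchased RNA on every array, was not constant. Its Cy3 signal was 1874 to 4125.5 in CB mice (mean 3103.5 ± 741, SD, n = 8), 2082 to 3244.5 in DEP mice (2578 ± 385, SD, n = 7) and 1055 to 2647 in air mice (1791 ± 574, SD, n = 8). Relative to its array, Hp in the Cy3 channel was higher on the log2 scale by 0.93 after CB (standard error 0.27, adjusted p = 1.00 by limma) and by 0.71 after DEP (standard error 0.28, adjusted p = 1.00). In the Cy3 channel alone limma called 0 features, and 2.33% of features had an unadjusted p under 0.05 after CB and 2.20% after DEP. The 30 features saturated on every array, Hp among them, shared this direction. In Cy3 their median log2 difference was 0.58 for CB and 0.41 for DEP. All 30 differences were positive for each particle, with the same air arrays in both comparisons. What moved the reference signal of these spots was not tested.

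**Figure D2:**
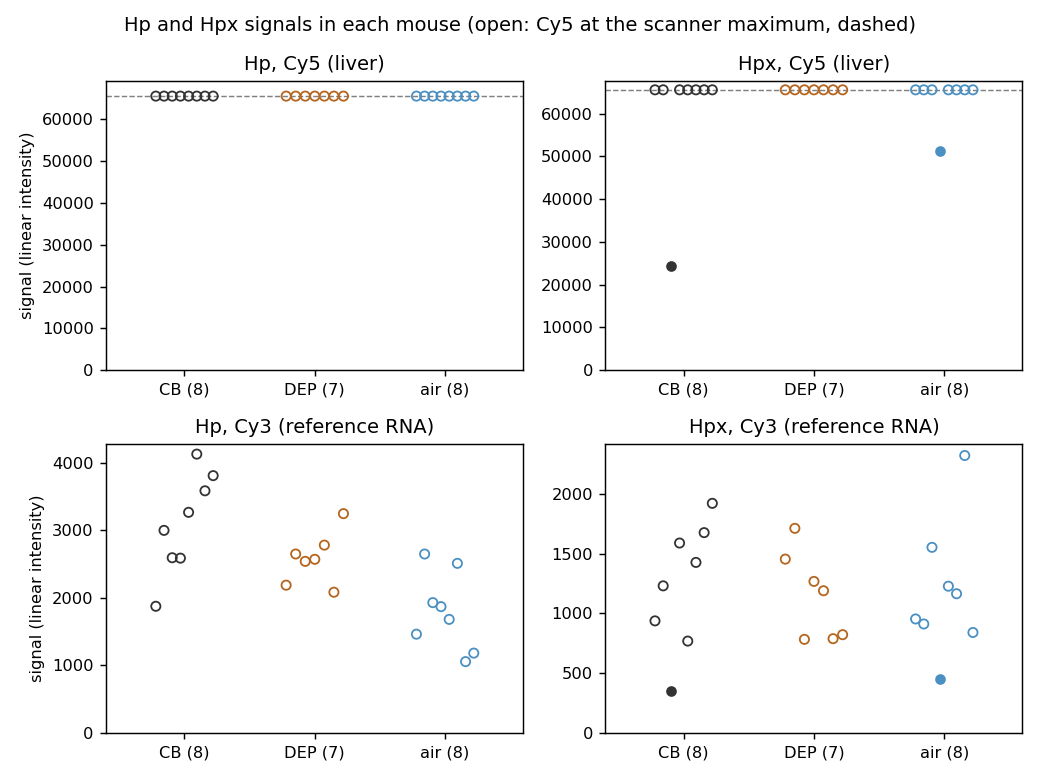
Cy5 signal of liver RNA (top) and Cy3 signal of reference RNA (bottom) for Hp and Hpx in each mouse, on linear axes from 0. Open points are spots with Cy5 at the scanner maximum (dashed line): all 23 for Hp and 21 of 23 for Hpx, and the Cy3 signal of Hp is highest on average in CB mice (3103.5).

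Hpx (NM_017371, chr7:105591611-105600116) was saturated on 7 of 8 CB arrays, 7 of 7 DEP arrays and 7 of 8 air arrays. It was measured only in CB mouse 58, with a Cy5 signal of 24423.5, and in air mouse 54, with 51202.5. In these 2 mice the Cy3 signals of the Hpx spot were also the lowest of all, at 350 and 447, beside 768 or more on the saturated arrays. The Cy3 signals had medians of 1328 in CB mice, 1189 in DEP mice and 1058.5 in air mice. Their log2 difference was 0.16 after CB (95% confidence interval −0.52 to 0.85) and 0.17 after DEP (−0.53 to 0.88), and both intervals held 0.

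The inter-alpha-trypsin inhibitor heavy chains, which bind hyaluronan in the extracellular matrix or circulate in plasma, are neighbours on chromosome 14. Itih4 (NM_018746, chr14:30886476-30901986) had log2 ratios of 2.02 to 2.97 in CB mice (median 2.59), 2.07 to 2.84 in DEP mice (median 2.48) and 2.32 to 3.07 in air mice (median 2.65). Its log2 fold change was −0.11 after CB (95% confidence interval −0.38 to 0.17, adjusted p = 0.938) and −0.18 after DEP (−0.47 to 0.10, adjusted p = 0.997). The groups overlapped over most of their range. The value after CB was −0.0278 without CB mouse 835436 and −0.0336 with the deposited ratios. Itih4 also went with the mean log2 ratio of 6 hepatocyte markers (Pearson's r = 0.58, Spearman's rho = 0.56, r = 0.34 without the 2 most extreme arrays). Of these markers, 2 were saturated on most arrays.

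Itih3 (NM_008407, chr14:30908572-30923787) was saturated in 2 CB, 3 DEP and 3 air mice, so that some of its ratios are lower bounds. Its log2 ratios were 5.03 to 6.37 in CB mice (median 5.98), 4.27 to 6.32 in DEP mice (median 5.77) and 4.96 to 6.24 in air mice (median 5.81). Set against air, its log2 fold change was 0.07 after CB (95% confidence interval −0.47 to 0.61, adjusted p = 0.983) and −0.23 after DEP (−0.79 to 0.32, adjusted p = 0.997). The DEP value turned on 1 mouse. DEP mouse 56 had a Cy3 signal of 2095.5 at this spot and the lowest ratio of all, 4.27, and without it the log2 fold change after DEP was −0.02. The direction of the CB value was not stable either, since it was −0.17 within the second round, −0.55 within the third, −0.14 with the slide set as a block and −0.22 with median centring.

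Cp (NM_007752, chr3:19956933-20009750), the plasma ferroxidase, had the smallest p-value of the members between the particle groups. Its log2 ratios were 1.19 to 2.14 in CB mice (median 1.45), 1.62 to 2.07 in DEP mice (median 1.91) and 1.17 to 2.09 in air mice (median 1.71). Of the 8 CB mice, 5 lay below the lowest DEP mouse, and the remaining 3 lay within or above the DEP range. CB over DEP gave a log2 fold change of −0.32 (standard error 0.14, 95% confidence interval −0.60 to −0.03, adjusted p = 1.00 by limma). With the round as a block it was −0.33, within the second round −0.43 and within the third (1 CB mouse) −0.52. Against air, Cp was at −0.13 after CB (−0.41 to 0.15, adjusted p = 0.930) and 0.19 after DEP (−0.10 to 0.48, adjusted p = 0.997). Over the 23 mice, the log2 ratio of Cp, as its deviation from the group mean, went with the share of features flagged absent in Cy5 on the same array (Pearson's r = −0.61, Spearman's rho = −0.61, r = −0.47 without the 2 most extreme arrays). The part of signal quality in the Cp values was not tested.

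Lrg1 (NM_029796, chr17:56119678-56121946), the leucine-rich glycoprotein, had log2 ratios of 3.05 to 3.80 in CB mice (median 3.46), 3.35 to 3.71 in DEP mice (median 3.59) and 3.36 to 4.12 in air mice (median 3.68). Only CB mouse 445 and air mouse 53 were saturated. The log2 fold change was −0.20 after CB (95% confidence interval −0.44 to 0.03, adjusted p = 0.873) and −0.11 after DEP (−0.35 to 0.14, adjusted p = 0.997). Without air mouse 53 the value after DEP was −0.0419. Within the second round these values were −0.07 and 0.03, and within the third −0.45 and −0.00460. Median centring gave −0.50 after CB (adjusted p = 0.0413), so that Lrg1 and Orm1 were the 2 members called under that scaling. Relative to the array, Lrg1 after CB was at −0.08 in Cy5 alone (95% confidence interval −0.59 to 0.44). Its reference signal in Cy3 was at 0.32 (−0.09 to 0.72). The part of the reference signal in this call was not tested.

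**Figure D3:**
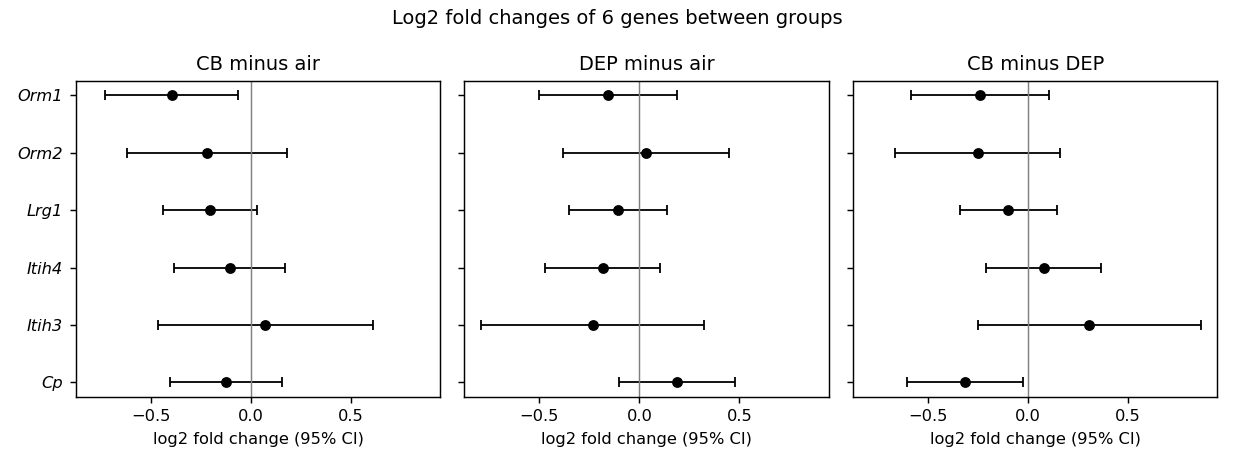
Log2 fold change of 6 genes between CB and air, DEP and air, and CB and DEP, with points for limma's estimate and bars for its 95% confidence interval. The bars lie below 0 only for Orm1 after CB (−0.73 to −0.06) and for Cp between CB and DEP (−0.60 to −0.03), before adjustment for the number of features.

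Between the particles, the intervals of the other measured members held 0. The log2 fold change of CB over DEP was −0.24 for Orm1 (95% confidence interval −0.58 to 0.11), −0.25 for Orm2 (−0.67 to 0.16), −0.10 for Lrg1 (−0.34 to 0.15), 0.08 for Itih4 (−0.21 to 0.37) and 0.31 for Itih3 (−0.25 to 0.86). All had an adjusted p of 1.00. Without DEP mouse 56 the value of Itih3 was 0.0965, and without DEP mouse 835435 that of Itih4 was 0.00982. The values do not show that the particles act alike, since for Orm2 a difference of −0.67 lies within them.

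The members differed in how much they varied between mice of 1 group. The SD within groups was 0.42 for Orm2, 0.34 for Orm1, 0.28 for Itih4, 0.28 for Cp and 0.23 for Lrg1, beside a median of 0.23 over 13216 features with no saturated spot that were flagged absent on at most 11 arrays. For Itih3, with 8 saturated arrays, it was 0.57. Orm2 was thus more variable than 88.4% of those features and Orm1 than 80.7%, whereas Lrg1 lay at the 46.9 percentile.

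Orm1, Orm2, Itih4 and Lrg1 varied together between mice of the same group, and Itih3 and Cp did so less. Over the 23 mice, with each group's mean removed, Pearson's r lay between 0.57 and 0.70 for the 6 pairs among the first 4 genes and between −0.13 and 0.39 for the 9 pairs with Itih3 or Cp. The highest were Itih4 with Lrg1 (0.70), Orm1 with Lrg1 (0.69) and Orm1 with Orm2 (0.67). Other genes varied with these 4 as well. Of the 13216 features named above, 7.31% had a higher r with Orm1 than Itih4 had, the largest such share among the 6 pairs. The smallest was 0.151%, the share with a higher r with Lrg1 than Itih4 had. With the exposure round removed as well, the 6 pairs lay between 0.55 and 0.68 and the other 9 between −0.18 and 0.31, and within the second round (12 mice) between 0.44 and 0.76 and between −0.37 and 0.39. With the slide set removed instead, the 6 pairs lay between 0.38 and 0.59 and the other 9 between −0.20 and 0.33. With the mean of the 6 hepatocyte markers removed, 2 of which were saturated on most arrays, they lay between 0.50 and 0.65 and between −0.18 and 0.28. The separation was not found in every scaling. With the Cy5 signal alone the 6 pairs lay between 0.07 and 0.61 and the other 9 between 0.14 and 0.72, and with median centring between 0.50 and 0.72 and between 0.22 and 0.66. The 4 genes were picked by these same values, which share an array per mouse and are given as a description.

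**Figure D4:**
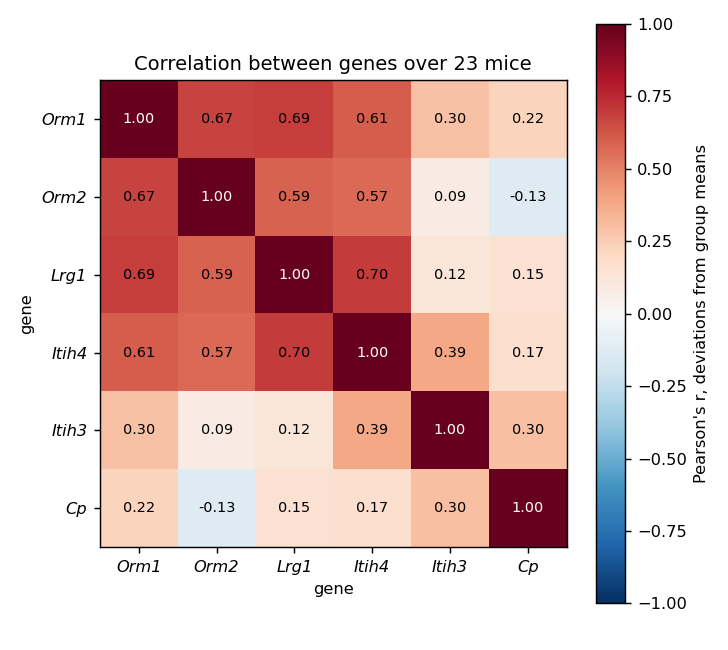
Pearson's r between the log2 ratios of 6 genes over 23 mice, after the mean of each group was removed. Each axis lists the genes and the colour runs from −1 to 1. The first 4 genes form a square of 0.57 to 0.70, and the pairs with Itih3 or Cp lie between −0.13 and 0.39.

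The features most like each member, by Pearson's r over the 23 mice among 13215 or 13216 eligible features, are given for each. Pemt, which makes phosphatidylcholine, had an r of 0.93 with Orm1, followed by Spp2 (0.87) and Plk5 (0.87). Orm2 was closest to Fahd2a (0.86), Cpped1 (0.84) and Sult1d1 (0.82), the last a sulfotransferase. Itih4 was closest to Ang3 (0.80), to Lcat (0.80), the plasma enzyme that esterifies cholesterol, and to Saa4 (0.79), the constitutive serum amyloid. Lrg1 was closest to Tmprss6 (0.83), the hepatocyte protease that restrains hepcidin, and to Ftcd (0.78) and Tkfc (0.78). Cp was closest to Ppp2r5c (0.81), Cib1 (0.80) and Gclm (0.76), a subunit of the first enzyme of glutathione synthesis, and Itih3 to Stard8 (0.73), Vmn1r41 (0.72) and P2ry14 (0.71). With Orm1, 3.69% of the eligible features correlated more highly than Orm2 did.

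Because Orm2, Itih4 and Lrg1 varied together in the loess ratios while Cp did not, the DNA before their start sites is shown. With median centring, Cp had an r of 0.61 with Itih4, 0.58 with Lrg1 and 0.22 with Orm2. RefSeq promoters (GRCm38.p6) were at hand for 6 of the 8 members, with 2 start sites for Cp. The 250 bases before each start were searched on both strands for TTCNNNGAA (a STAT motif), TTGCNNAA (a C/EBP motif) and CTGGGAA (the type II interleukin-6 element), which do not overlap each other in these windows. Of 32851 promoters, 7.02%, 9.56% and 9.10% hold them in that order. In the lines that follow, 5′ to 3′ on the strand of the gene, capitals mark every match.
Orm2 (chr4:63362199-63362448, plus strand): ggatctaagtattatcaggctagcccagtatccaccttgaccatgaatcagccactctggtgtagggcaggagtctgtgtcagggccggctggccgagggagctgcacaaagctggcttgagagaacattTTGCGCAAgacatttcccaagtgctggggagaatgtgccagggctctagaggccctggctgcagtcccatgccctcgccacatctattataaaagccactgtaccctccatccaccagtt
Itih4 (chr14:30886226-30886475, plus strand): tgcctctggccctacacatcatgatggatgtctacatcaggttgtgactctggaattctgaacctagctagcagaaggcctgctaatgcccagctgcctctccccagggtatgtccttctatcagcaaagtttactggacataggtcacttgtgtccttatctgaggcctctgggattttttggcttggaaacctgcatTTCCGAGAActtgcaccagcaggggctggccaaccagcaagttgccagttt
Lrg1 (chr17:56121947-56122196, minus strand): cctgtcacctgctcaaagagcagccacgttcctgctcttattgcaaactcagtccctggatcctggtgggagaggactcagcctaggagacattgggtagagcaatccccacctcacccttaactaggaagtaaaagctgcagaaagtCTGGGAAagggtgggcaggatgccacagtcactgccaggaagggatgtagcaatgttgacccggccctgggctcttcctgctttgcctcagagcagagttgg
Cp, the second start site (chr3:19956999-19957248, plus strand): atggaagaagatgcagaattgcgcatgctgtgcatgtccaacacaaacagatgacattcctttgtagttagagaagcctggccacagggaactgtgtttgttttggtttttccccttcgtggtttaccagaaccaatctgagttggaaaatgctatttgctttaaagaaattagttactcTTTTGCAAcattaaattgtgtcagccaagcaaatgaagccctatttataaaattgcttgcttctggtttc

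Orm2 held the palindromic C/EBP letters TTGCGCAA 113 to 120 bases before its start, Itih4 a STAT match 43 to 51 bases before, and Lrg1 the type II element 96 to 102 bases before. Cp had a C/EBP match on the opposite strand 63 to 70 bases before its second start and 0 matches before the first. Hpx had 1 C/EBP match 193 to 200 bases before its start, and Itih3 had 0 matches. The windows of Itih3 and of the first Cp start overlap those genes as positioned above. The window of the second Cp start lies within the Cp gene. The 3 genes that varied together thus held a different motif each, and a gene outside that set held one too. A match is a string of letters and not a measured binding site.

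Whether the members followed an acute phase signal from mouse to mouse was examined with Saa3, an inflammation-induced serum amyloid whose log2 ratio spanned −1.02 to 2.52 in CB mice, −0.91 to 2.39 in DEP mice and −1.18 to 3.12 in air mice. Its log2 ratio was entered as a covariate beside the group means, so that a slope of 1 would mean a gene that doubles when Saa3 doubles. Lrg1 had a slope of 0.10 (standard error 0.03, 95% confidence interval 0.03 to 0.17, adjusted p = 1.00 by limma), which ranked 43rd of 18687 features by p. Its slope was 0.0753 (adjusted p = 1.00) without the saturated spots of mice 53 and 445. Only 1 feature was called (0.00535%), Lcn2, a neutrophil and hepatocyte lipocalin, with a slope of 0.51 (adjusted p = 0.00233). Orm2 had a slope of 0.12 (95% confidence interval −0.00239 to 0.24), Orm1 of 0.09 (−0.02 to 0.19) and Itih4 of 0.07 (−0.02 to 0.16). Cp was at 0.00252 (−0.09 to 0.10) and Itih3 at −0.06 (−0.24 to 0.12), or −0.17 without its 8 saturated spots. Of the neutrophil markers, S100a9 had a slope of 0.29 and S100a8, flagged absent on 14 arrays, one of 0.14 (adjusted p = 1.00 for both). Ngp, flagged absent on 22 arrays, was at 0.07. Ltf was at −0.01, Elane at −0.06 and Camp, flagged absent on all 23, at −0.06. The part of these markers in the slopes of the members was not tested.

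The 4 highest slopes among the members belonged to the 4 genes that varied together. Those 4 were picked from the same ratios, and genes that vary together tend to share a slope, so this is not a separate result. As a correlation over 23 mice with group means removed, Lrg1 and Saa3 had a Pearson's r of 0.60 and a Spearman's rho of 0.43, and r was 0.40 without the 2 mice farthest out in Saa3. Of the eligible features, 0.144% correlated more highly with Saa3. In the Cy5 signal alone, without the reference, the slope of Lrg1 was 0.28 (adjusted p = 0.0103), and Lrg1 was 1 of 4 features called, beside Saa1, Saa2 and Lcn2. That signal also carries differences between arrays, and 65.5% of all features had a slope above 0 in it, against 52.2% in the ratios. In the ratios the slope was 0.51 for Lcn2, 0.05 for Saa1 and −0.16 for Saa2, and Saa1 and Saa2 were each saturated on 7 arrays. Blocked by exposure round, the slope of Lrg1 was 0.07. Its mean log2 ratio was 3.86 over the 4 mice of the first round, 3.53 over the 12 of the second and 3.44 over the 7 of the third.

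**Figure D5:**
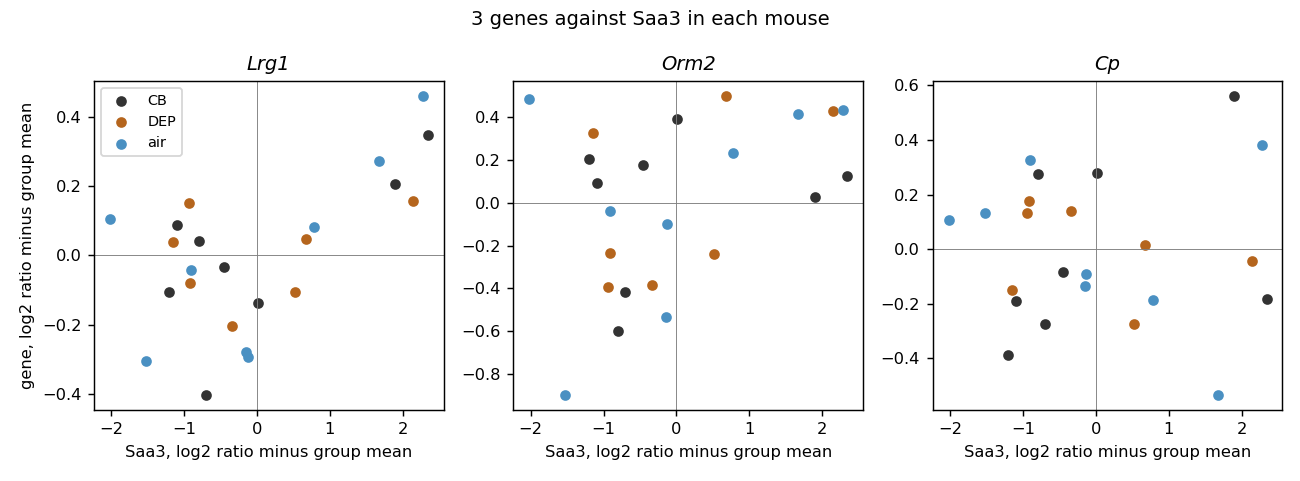
Log2 ratio of Lrg1, Orm2 and Cp (vertical axes) against that of Saa3 (horizontal axes) in each of 23 mice, both as deviations from the group mean, with CB, DEP and air mice in different colours. Lrg1 is higher where Saa3 is higher (r = 0.60), with the 3 highest Lrg1 points among the mice of high Saa3, Orm2 less so (r = 0.40), and Cp does not (r = 0.01).

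In the group comparisons, none of the listed genes around these proteins passed the test. Here a gene is counted as measured if it was saturated on at most 11 arrays and not flagged absent on all 23, a limit set after the values had been seen. Of 21 listed other positive acute phase proteins, 19 were on the array and 15 were measured, since Fgb, Fgg, Mt1 and Mt2 were saturated on most or all arrays. Limma called 0 of the 15, and at an unadjusted p under 0.05 it listed 4 after CB and 3 after DEP, all lower, beside 3.39% and 2.53% of all features. The log2 fold change was below 0 for 10 of 15 after CB (median −0.31) and for 11 of 15 after DEP (median −0.18), beside a median of 0.00 over all features in both comparisons. With Fgg, Mt1 and Mt2 kept, these counts were 13 of 18 (median −0.24) and 14 of 18 (median −0.18). Over all features, 49.8% lay below 0 after CB and 50.0% after DEP. Of the hepatocyte markers, 3 of 4 that were measured lay below 0 after CB (median −0.21) and 4 of 4 after DEP (median −0.17). In the 30 features saturated on every array the median was −0.35 after CB and −0.38 after DEP, but their Cy5 signal is capped. Such a ratio moves with the Cy3 signal, which was higher for all 30 after both particles, and is no measure of the liver level. What part the shifts of the hepatocyte markers and of the saturated features had in the values of the list was not tested. The smallest p-values in either comparison belonged to Hamp, the iron hormone hepcidin (−0.65 after CB, −0.46 after DEP, saturated on 7 arrays), Fga, a fibrinogen chain (−0.44 and −0.18, saturated on 5 arrays), and Saa4 (−0.47 and −0.53). Saa4 was counted in this list although it is the constitutive serum amyloid, and it is among the genes listed as lower after each particle.

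Among the cytokine signalling genes and transcription factors that drive the response, 19 of 21 were on the array and 18 measured, Il1rap being flagged absent on all arrays. Limma called 0, with 1 higher after CB and 0 after DEP at an unadjusted p under 0.05, beside 2.55% and 2.28% of all features. Their log2 fold change was below 0 for 10 of 18 after CB (median −0.09) and 11 of 18 after DEP (median −0.06). These counts stand beside 49.8% and 50.0% of all features. Il1b, the gene of interleukin-1 beta, was at 0.65 after CB (adjusted p = 0.816) and 0.49 after DEP (adjusted p = 0.997). Stat3, which carries the interleukin-6 signal, was at −0.08 and −0.21, and Cebpd, an inducible C/EBP factor, at −0.14 and −0.41.

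The partners and receptors of the glycoproteins had 13 measured genes, of which 10 were below 0 after CB (median −0.11) and 8 after DEP (median −0.06), beside 49.8% and 50.0% of all features. Limma called 0, and 2 were lower after each particle at an unadjusted p under 0.05, beside 3.39% and 2.53% of all features. The asialoglycoprotein receptor, which removes desialylated glycoproteins from plasma, had the smallest p-values: its subunit Asgr2 was at −0.48 after CB (adjusted p = 0.621) and −0.51 after DEP (adjusted p = 0.997), saturated on 3 arrays, and Asgr1 at −0.62 and −0.53, saturated on 10. Itih2, another heavy chain, was at −0.31 and −0.18. Of the negative acute phase proteins, which fall in inflammation, 8 were on the array and 3 measured, the rest being saturated on most or all arrays. Limma called 0, with 1 lower after each particle at an unadjusted p under 0.05, beside the same shares of all features. Their medians were −0.27 after CB and −0.22 after DEP, with all 3 below 0 in both and Serpina6, which carries corticosteroids, at −0.57 and −0.48 and saturated on 6 arrays.

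The ranges of other liver cell markers overlapped between the groups. The mean log2 ratio of 7 Kupffer cell and macrophage markers was 1.60 to 2.34 in CB mice, 1.63 to 2.68 in DEP mice and 1.68 to 2.36 in air mice. That of 6 neutrophil markers was −0.12 to 0.77 in CB mice, −0.03 to 0.60 in DEP mice and −0.04 to 0.43 in air mice, with 1 marker flagged absent on all arrays and 3 on most. Their part in the values of the members was not tested.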

How the data were processed

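Total liver RNA of 23 mice was amplified, labelled with Cy5 and hybridised beside Cy3-labelled reference RNA, 1 array per mouse. The deposited intensity of each channel was used as given, with no background subtracted. The authors also deposited flags of absent spots and log2 ratios from lowess (R 2.4.1), which served as an alternative. Here log2 ratios were computed by loess within each array in limma 3.58.1 (R 4.3.3). A gene was listed for 18688 of the 22575 features, and the others (3887) were left out, since control spots among them are not marked. Members are single features with 1 listed gene.

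All groups entered 1 fit (lmFit and eBayes), with Benjamini-Hochberg adjustment over all features at 0.05. A second fit added the log2 ratio of Saa3. The Cy3 signal was compared relative to each array. The fits were tested on simulated data. The members, gene lists and tests were chosen with earlier results of these data known. Named besides the members are up to 3 genes per list with the smallest p, fully saturated features aside, and the 3 features most like each member. A slide set is a run of neighbouring array numbers (5 sets). The alternatives were the deposited ratios, median centring, Aquantile, Cy5 alone, normexp with an offset of 50, filters on dim, saturated or absent spots, blocks for round, slide set and exposure day, single rounds, only the groups compared, array weights, a threshold of 0.1 and leaving out each mouse. Other settings for the correlations between members, and a limit on saturated or absent list genes, were added after seeing the data. The MAANOVA test of the methods was not run.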

Additional observations from a re-analysis of the deposited data

Results flagged for a closer look

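Among 42 sets of values (log2 ratios of 6 members and log2 Cy3 signals of 8, in each group), 2 held a mouse far from the rest of its group by Dixon's ratio, and chance flags about 1 set in 20. Both are Cy3 signals of the Itih3 spot. In DEP mouse 56 the log2 Cy3 signal, relative to its array, was 2.75, the highest of its group, with a Cy3 signal of 2095.5 on the linear scale. In air mouse 835433 it was −0.14, the lowest of its group.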

How the results depend on the processing

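Of 24 member values (fold changes and slopes), 10 changed sign under at least 1 alternative other than leaving out a mouse, and the cause was not tested. Orm2 after DEP was −0.0448 with the deposited ratios, −0.0339 with median centring, −0.0432 with normexp and −0.0220 with the slide set as a block. Itih3 after CB was −0.22 with median centring, −0.14 with the slide set as a block, −0.17 in the second round and −0.55 in the third. Between CB and DEP, Itih4 was −0.11 with median centring, −0.0290 with Cy5 alone, −0.0457 with the round and −0.0232 with the slide set as a block, −0.0164 in the second round and −0.35 in the third. With Cy5 alone Orm1 after DEP was 0.0122, Itih3 after DEP 0.11, and between CB and DEP Itih3 was −0.0356 and Lrg1 0.14. In the third round Orm1 after DEP was 0.34 and Itih3 between CB and DEP −0.43, and in the second Lrg1 after DEP was 0.0342. The Saa3 slope of Cp was −0.00186 with the deposited ratios, −0.0130 with median centring and −0.0246 with the round as a block, and that of Itih3 was 0.0247 with Cy5 alone.

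Counts of called features after CB were 285 with median centring (2 members), 50 in the third round alone, 1 with array weights and 1 at a threshold of 0.1, and between CB and DEP 100 in the third round. The third round holds 1 CB mouse, so those counts assume that it varies like the other groups. The Saa3 slope was called for 4 features with Cy5 alone (1 member), 2 with the round as a block and 2 without saturated spots. Leaving out each mouse gave 0 to 1 features after CB (1 without CB mouse 59 or air mouse 442) and 1 to 2 for the slope (2 without DEP mouse 57, air mouse 835433 or CB mouse 835436). It gave −0.0423 to 0.19 for Itih3 after CB, −0.0956 to 0.10 for Orm2 after DEP and −0.0337 to 0.0325 for the slope of Cp. The Cy5 ceiling limits Hp, Hpx and, in part, Itih3 and Lrg1. No paired analysis was possible because the groups share no mouse numbers.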
